A study of Mus musculus with 5 samples.

Results

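The 10 genes described here, Trem2, Gpnmb, Cd9, Spp1, Lpl, Itgax, Lgals3, Cd68, Cd63 and Fabp5, are genes of lipid-associated macrophages, the macrophages that gather around lipid-laden cells in fatty liver and in obese adipose tissue. They were found by symbol among the 33589 rows of the deposited expression table, where each of the 10 had a single row. RNA-seq was run on 5 mouse livers. In 2 control livers Heg1 carried floxed alleles (labelled Hegfl/fl) with no Cre, and in 3 knockout livers the same floxed alleles were joined with Lyve1-Cre (labelled Lyve1-Cre;Hegfl/fl), so the floxed allele is common to both groups. All animals were males, given in the labels as 6 weeks old, and both groups received a high-fat diet for 4 weeks. Lyve1 is a gene of lymphatic and liver sinusoidal endothelium, and some tissue macrophages carry it as well, so the driver does not by itself keep Heg1 deletion out of macrophages. No source used here gives the floxed part of Heg1, the litters or any pooling of animals. The title of the series speaks of hepatocytes while the labels give liver as the tissue. Genes of macrophages, endothelium and stellate cells were present in every library, which does not by itself settle the matter. The values are treated here, by the labels, as those of whole liver.

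Lipid-associated macrophages are marked by TREM2, a surface receptor for lipids and lipoproteins that signals through the adaptor TYROBP (DAP12), and by a set of lysosomal, lipid-handling and adhesion genes that accompany it. In fatty liver they derive largely from recruited monocytes, and they lie beside resident Kupffer cells, which carry Clec4f, Timd4 and Vsig4. Most of the 10 genes are not exclusive to these cells. Spp1 is also strong in cholangiocytes, Lpl in adipocytes and stellate cells, and Cd9, Cd63, Lgals3 and Fabp5 in many cell types.

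The question asked of the comparison is how the genes differ between livers with and without Lyve1-Cre on the high-fat diet. Values are FPKM, that is, fragments scaled for transcript length and library size, as deposited. The 10 genes did not move as a block. Fabp5, Spp1 and Lpl were higher in each of the 3 knockout livers than in either control liver, Cd63 was lower in each, and the other 6 (Trem2, Gpnmb, Itgax, Cd68, Lgals3 and Cd9) had overlapping groups. Every knockout lay above every control for 17.8% and below every control for 6.23% of the 14401 genes with a mean of at least 0.1 FPKM, a minimum that all 10 members pass. None of the 10 passed limma's test after Benjamini-Hochberg adjustment over all genes, with a threshold of 0.05. The share called among all genes was 0%, in the fit of 10820 genes with a mean of at least 1 FPKM and in that of the 14401. At an unadjusted p below 0.05, limma took Spp1 and Fabp5 as higher, where 4.57% of the 14401 genes were, and Cd63 as lower, where 1.82% were. In the fit at the minimum of 1 FPKM, each of these ended on leaving out a single liver: Spp1 without control 1, Fabp5 without control 2, and Cd63 without control 1 or knockout 3, as well as with the replicate number as a block. The rows of Trem2, Cd9, Spp1, Lpl, Lgals3, Cd68, Cd63 and Fabp5 were tested among the 10820 genes, and Gpnmb and Itgax, which lie below 1 FPKM, among the 14401.

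Upstream sequence is shown for the 3 members that stand for the 3 patterns in the values: Spp1, higher in every knockout; Cd63, lower in every knockout; and Cd68, whose groups overlapped. Each run is the 250 bases before a RefSeq start site (build GRCm38.p6, which shares its coordinates with mm10), 5′ to 3′ on the gene's own strand, and capitals mark letters matching a motif searched on both strands.
Spp1, chr5:104434861-104435110, plus strand: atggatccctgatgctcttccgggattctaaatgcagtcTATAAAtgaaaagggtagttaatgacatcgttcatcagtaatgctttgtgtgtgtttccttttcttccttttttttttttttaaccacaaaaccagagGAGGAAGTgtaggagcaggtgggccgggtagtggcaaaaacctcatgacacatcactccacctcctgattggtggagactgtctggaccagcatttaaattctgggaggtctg
Cd63, chr10:128909095-128909344, plus strand: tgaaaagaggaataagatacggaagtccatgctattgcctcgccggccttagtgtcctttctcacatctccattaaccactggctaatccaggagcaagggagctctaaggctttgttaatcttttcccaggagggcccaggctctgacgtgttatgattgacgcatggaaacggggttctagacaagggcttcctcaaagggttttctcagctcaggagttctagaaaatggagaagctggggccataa
Cd68, chr11:69666171-69666420, minus strand: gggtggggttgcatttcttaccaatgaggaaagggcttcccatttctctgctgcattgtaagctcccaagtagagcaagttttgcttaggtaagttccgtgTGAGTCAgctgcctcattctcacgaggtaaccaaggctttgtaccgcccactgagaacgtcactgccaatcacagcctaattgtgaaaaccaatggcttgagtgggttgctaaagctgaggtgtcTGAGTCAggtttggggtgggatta
RefSeq start sites were at hand for 8 of the 10 members (9 windows, since Spp1 has 2), and not for Lpl and Fabp5. The Spp1 window above held GAGGAAGT, the letters of a PU.1 site, the macrophage lineage factor, ending 105 bases before the start, which 2.44% of all 32851 windows of this kind hold. It also held TATAAA, ending 205 bases before the start (12.4% of windows). The Cd68 window held TGACTCA, the AP-1 letters, in 2 places, both read on the opposite strand as TGAGTCA and ending 142 and 17 bases before the start, and Itgax had it in 1 place (4.46% of windows). No member's window held CACGTG, the E-box of the MITF and TFE lysosomal regulators (6.02% of windows), and AGGTCA, the core element of nuclear receptors, was found in that of Trem2 alone, on the opposite strand (14.0%). The Cd63 window held none of the 5 motifs searched, nor did the other Spp1 window or those of Gpnmb, Cd9 and Lgals3. The motifs do not overlap one another in these windows, and a match describes letters only.

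By mean over the 5 livers, the levels ran from Spp1 (45.8 FPKM, above 85.7% of the genes tested) through Fabp5 (22.4), Cd68 (12.8), Cd9 (8.05), Lgals3 (5.60), Cd63 (4.66), Lpl (3.72) and Trem2 (1.27) to Itgax (0.31) and Gpnmb (0.22). From Spp1 down to Lpl each gene's range over the livers overlapped that of the next. Compared within each liver, Spp1 exceeded Fabp5, Cd68 exceeded Cd9, and Cd9 exceeded Lgals3 in all 5. The order of Fabp5 and Cd68, of Lgals3 and Cd63, and of Cd63 and Lpl changed between livers, so it is not firm there. Lpl and Trem2 did not overlap, nor did Trem2 and Itgax, while Itgax and Gpnmb did. Trem2, Gpnmb and Itgax, which are among the genes most tied to the lipid-associated state, had the lowest means of the 10.

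**Figure D1:**
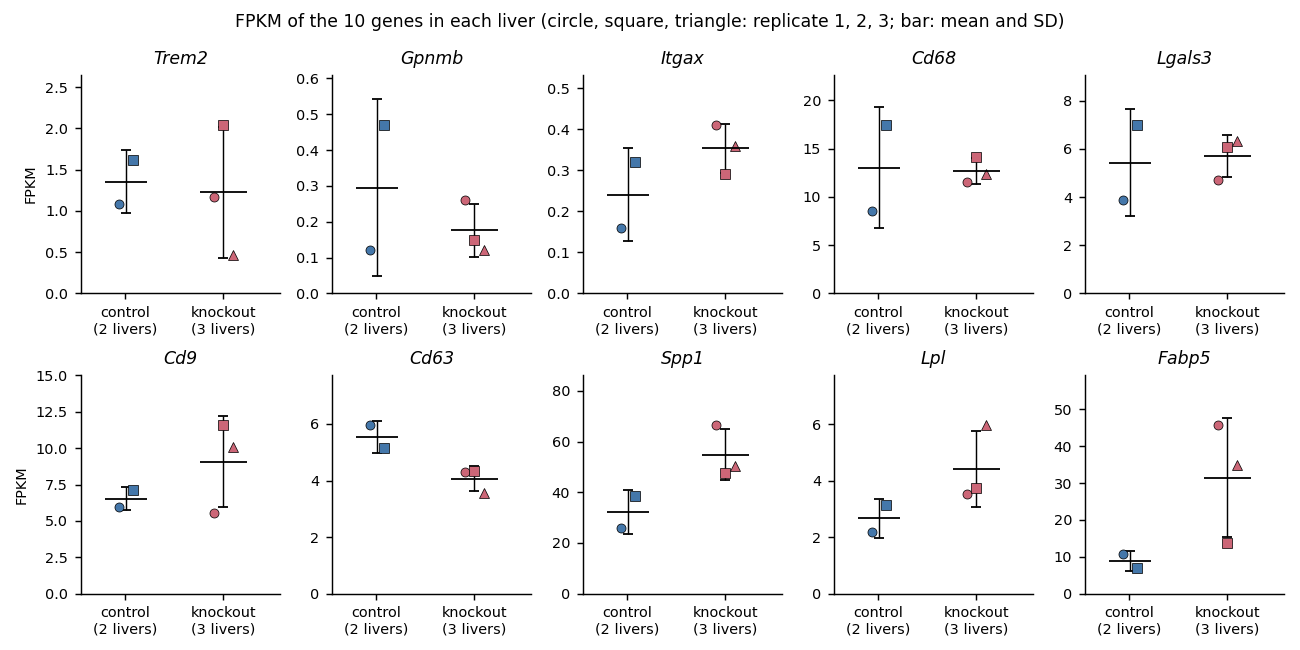
FPKM (vertical axes, each from 0) of the 10 genes in 2 control livers (blue) and 3 knockout livers (red), with the mean as a bar and the SD as an error bar. Fabp5, Spp1 and Lpl have all 3 knockouts above both controls, Cd63 has all 3 below, and the groups of the other 6 overlap.

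Among the receptors, Trem2 (chromosome 17, 48346401 to 48354147, plus strand, in mm10 coordinates) had 1.08 and 1.62 FPKM in the 2 controls against 1.17, 2.04 and 0.46 in the 3 knockouts. Knockout 2 was the highest liver and knockout 3 the lowest, so the knockouts enclosed both controls. The log2 difference, which here always means the difference of mean log2(FPKM + 1), knockout minus control, was -0.13 (SE 0.31, 95% interval -0.88 to 0.62, limma adjusted p = 0.927). Its sign turned to 0.033 without control 2 and 0.14 without knockout 3. The interval leaves room for a shift of either sign, and such a shift was not detectable with these 5 livers.

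Itgax (chromosome 7, 128129547 to 128150657, plus strand) encodes CD11c, the integrin alpha chain of dendritic cells and of macrophages in obese tissue. It stood at 0.16 and 0.32 FPKM in the 2 controls against 0.41, 0.29 and 0.36 in the 3 knockouts. Knockout 2 fell between the controls and the other knockouts lay above them. This gave a log2 difference of 0.13 (SE 0.11, limma adjusted p = 0.839 in the fit of 14401 genes).

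Gpnmb (chromosome 6, 49036546 to 49070929, plus strand), a membrane glycoprotein of lysosome-laden macrophages, had 0.12 and 0.47 FPKM in the 2 controls against 0.26, 0.15 and 0.12 in the 3 knockouts. Control 2 was the highest liver, and control 1 was level with knockout 3 at the bottom. This gave a log2 difference of -0.13 (SE 0.15, limma adjusted p = 0.867), and it was 0.069 without control 2. At these levels the pseudocount of 1 compresses any change, and sequencing depth is not known.

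Cd68 and Lgals3 differed more between the 2 controls than between the groups. Cd68 (chromosome 11, 69664213 to 69666153, minus strand), the endosomal glycoprotein used to stain tissue macrophages, had 8.57 and 17.44 FPKM in the 2 controls against 11.53, 14.15 and 12.39 in the 3 knockouts. Both extremes were control livers, and the 3 knockouts lay between them. The log2 difference was 0.039 (SE 0.27, 95% interval -0.61 to 0.68, limma adjusted p = 0.980), and it turned to -0.023 with median-of-ratios scaling and -0.034 with quantile normalization.

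Lgals3 (chromosome 14, 47367751 to 47386160, plus strand) encodes galectin-3, a lectin that binds damaged lysosomes and glycoproteins at the cell surface. Its values were 3.87 and 6.99 FPKM in the 2 controls against 4.71, 6.09 and 6.32 in the 3 knockouts. Control 1 was again the lowest liver and control 2 the highest, as for Cd68. Its log2 difference was 0.096 (SE 0.23, limma adjusted p = 0.929), and with quantile normalization it was -0.00019. Of the other members, Cd68 was the nearest to Lgals3, with a root mean square difference of 0.12 log2 units between their centred values over the 5 livers. The nearest member of Trem2, Cd9, Spp1, Lpl, Cd63 or Fabp5 was 0.29 to 0.69 away. This measure is not scaled to a gene's own range, which ran from 0.61 log2 units for Cd63 to 2.55 for Fabp5, so these distances are not strictly comparable.

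The pair of tetraspanins, membrane proteins of endosomes and the cell surface, had differences of opposite sign. Cd63 (chromosome 10, 128900989 to 128912822, plus strand), a protein of late endosomes, lysosomes and exosomes, had 5.95 and 5.15 FPKM in the 2 controls against 4.31, 4.32 and 3.55 in the 3 knockouts. All 3 knockouts lay below both controls. The log2 difference was -0.37 (SE 0.13, 95% interval -0.70 to -0.051), with an unadjusted p of 0.0295 and a limma adjusted p of 0.700. It kept its sign in each alternative that could be run, between -0.47 and -0.29. The row of the pseudogene Cd63-ps stood at 0 in all libraries.

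Cd9 (chromosome 6, 125460266 to 125494791, minus strand) had 5.96 and 7.11 FPKM in the 2 controls against 5.56, 11.57 and 10.06 in the 3 knockouts. Knockouts 2 and 3 exceeded both controls, whereas knockout 1 was the lowest liver of all. Its log2 difference was 0.37 (SE 0.28, limma adjusted p = 0.783), and without knockout 1 it was 0.65 (limma adjusted p = 0.645). The gene overlaps 2 transcripts on the other strand (Gm28809 and Gm26728), and no source used here says whether strand was used in counting. Of 10 further tetraspanins, 9 were tested and 0 passed, 6 being higher and 3 lower in knockouts, with a median log2 difference of 0.039 that turned to -0.019 with median-of-ratios scaling and -0.014 with quantile normalization. Leaving out single livers moved it from -0.00091 (control 1) and 0.0071 (knockout 2) to 0.11 (control 2). Tspan31 had 131 and 140 FPKM in the 2 controls against 153, 162 and 163 in the 3 knockouts.

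Spp1 (chromosome 5, 104435118 to 104441050, plus strand) encodes osteopontin, a secreted matrix protein that binds integrins and CD44 and draws in macrophages. It had 25.95 and 38.38 FPKM in the 2 controls against 66.42, 47.79 and 50.42 in the 3 knockouts. Every knockout lay above both controls, and the mean was 1.71 times that of controls (54.9 ± 10.1 against 32.2 ± 8.79 FPKM, SD, n = 3 and n = 2). The log2 difference was 0.76 (SE 0.21, 95% interval 0.26 to 1.26), with an unadjusted p of 0.00907 and a limma adjusted p of 0.700. It lay between 0.49 without control 1 and 1.04 without control 2, and was 0.62 without knockout 1, the highest liver. The annotation places a further transcript of unknown kind, Gm42793, on the same strand within the locus.

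Cholangiocytes of the bile ducts are another source of Spp1, so their markers were read beside it. All 10 had a row and 4 of the 10 reached a mean of 1 FPKM. Of these 4, 3 were higher and 1 lower in knockouts, with 0 passing. Their summed level was 72.4 and 64.8 FPKM in the 2 controls against 84.1, 71.8 and 70.8 in the 3 knockouts, but 88.5% of it was Spint2, a protease inhibitor of many epithelia. The other 9 summed to 7.22 and 6.61 FPKM in the 2 controls against 12.7, 6.74 and 8.70 in the 3 knockouts, with knockout 2 between the controls. Krt19 had 1.44 and 0.72 FPKM in the 2 controls against 2.11, 1.16 and 1.87 in the 3 knockouts (log2 difference 0.39, limma adjusted p = 0.744), and Epcam had 0.86 and 0.66 against 1.93, 0.85 and 1.28 FPKM (log2 difference 0.40, limma adjusted p = 0.735). Knockout 1, the highest liver for Spp1, was the highest for 7 of the 10 markers, knockout 2 for 1 and knockout 3 for 2. This was not particular to bile duct markers. Knockout 1 was also the highest for 7 of 10 sinusoidal endothelial, 7 of 10 lymphocyte and 7 of 7 erythroid markers, but for 2 of the 15 pan-macrophage genes. The part of bile duct cells in the Spp1 difference was not tested.

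The receptors of osteopontin showed smaller differences. Of 8 genes, CD44 and integrin chains that include Itgb2, the partner of CD11c, 7 were tested and 0 passed, with 6 higher and 1 lower and a median log2 difference of 0.031 (-0.017 with median-of-ratios scaling, -0.012 with quantile normalization). That median was -0.039 without control 1, -0.031 without knockout 2, 0.18 without knockout 1 and 0.19 without control 2. Itga9 had 2.52 and 2.81 FPKM in the 2 controls against 4.24, 3.28 and 4.50 in the 3 knockouts (log2 difference 0.44, SE 0.15, limma adjusted p = 0.700). Itgb2 had 2.11 and 4.05 against 3.48, 3.73 and 3.97 FPKM, and Cd44 2.0 and 3.24 against 1.97, 3.43 and 2.68 FPKM. In both, control 2 exceeded control 1 by more than the means of the groups differed.

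Fabp5 (chromosome 3, 10012548 to 10016607, plus strand), a cytosolic carrier that shuttles fatty acids, showed the widest spread of the 10. It had 10.80 and 6.96 FPKM in the 2 controls against 45.64, 13.80 and 34.94 in the 3 knockouts. Knockouts 1 and 3 stood well apart from the controls, while knockout 2 was close to control 1. The mean was 3.54 times that of controls (31.5 ± 16.2 against 8.88 ± 2.72 FPKM, SD, n = 3 and n = 2). Its log2 difference was 1.59 (SE 0.47, 95% interval 0.45 to 2.73), with an unadjusted p of 0.0136 and a limma adjusted p of 0.700. Leaving out single livers put it between 1.25 (without knockout 1) and 2.08 (without knockout 2).

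The other fatty acid binding proteins had smaller log2 differences than Fabp5. Fabp1, the abundant form of hepatocytes, had 6994 and 5341 FPKM in the 2 controls against 7796, 5020 and 8121 in the 3 knockouts. Fabp4, the form of adipocytes and of some macrophages and endothelium, had 11.3 and 28.4 against 13.2, 24.5 and 19.4 FPKM. Of the 5 in the list, 4 were tested with 0 passing, 3 being higher and 1 lower (median log2 difference 0.021, and -0.038 with median-of-ratios scaling and -0.056 with quantile normalization). Leaving out single livers put that median at -0.36 without control 1, -0.088 without knockout 2, -0.015 without knockout 3, 0.11 without knockout 1 and 0.25 without control 2. Fabp6 was listed at 0 in every liver. For Fabp1, as for Fabp5, knockouts 1 and 3 were the highest livers and control 1 exceeded control 2, but knockout 2 was the lowest.

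Lpl (chromosome 8, 68880491 to 68907448, plus strand) encodes lipoprotein lipase, which frees fatty acids from circulating triglycerides. It had 2.19 and 3.15 FPKM in the 2 controls against 3.54, 3.74 and 5.97 in the 3 knockouts. All 3 knockouts lay above both controls, with knockout 3 apart from the rest. The log2 difference was 0.55 (SE 0.23, 95% interval -0.0013 to 1.09), with an unadjusted p of 0.0504 and a limma adjusted p of 0.700. It was 0.35 without knockout 3 and 0.36 without control 1.

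The partners of the lipase leaned the other way. Of 11 genes of the lipase system, 10 were tested, 8 of them lower and 2 higher in knockouts, and 0 passed. The median log2 difference was -0.10, against 0.061 over all genes tested. With median-of-ratios scaling it was -0.17, against 0.0026 over all genes tested. The median of the lipase system was -0.069 without control 1, -0.073 without knockout 2, -0.14 without control 2 and -0.15 without knockout 1. Of the 10, 0 had groups that did not overlap, where 18.9% of all genes tested lay above and 6.38% below. Angptl4, a secreted inhibitor of the lipase, had 101 and 63.7 FPKM in the 2 controls against 77.2, 72.7 and 41.6 in the 3 knockouts, and the cofactor Apoc2 389 and 519 against 341, 287 and 472 FPKM. Gpihbp1, which anchors the lipase on capillary endothelium, had 35.8 and 40.9 against 33.5, 28.9 and 40.7 FPKM. As for adipocytes, which hold much Lpl, the defining markers Adipoq, Plin1, Lep and Retn were listed at 0 in all 5 livers, so 4 of the 8 adipocyte markers were undetected, and 86.2% of the summed level of the list was Fabp4, which other cells also make. The other 7 summed to 1.86 and 4.68 FPKM in the 2 controls against 3.45, 2.09 and 3.39 in the 3 knockouts, which overlap. Of 13 stellate cell and fibroblast markers, all tested, 9 were lower and 4 higher in knockouts with 0 passing. They summed to 255 and 269 FPKM in the 2 controls against 201, 255 and 291 in the 3 knockouts, which also overlap. The part of these cells in the Lpl difference was not tested.

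**Figure D2:**
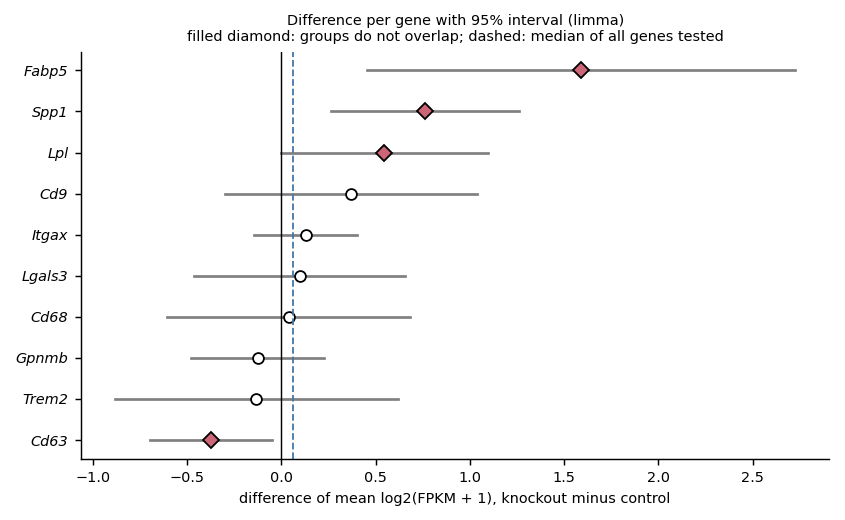
Difference of mean log2(FPKM + 1), knockout minus control (horizontal axis), with its 95% interval from limma, for the 10 genes. Filled diamonds mark genes whose groups do not overlap, the dashed line is the median of all genes tested (0.061), and the intervals of Fabp5, Spp1 and Cd63 leave out 0 while none passed the adjusted test.

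Each difference depends on the 2 controls, which were unlike each other in macrophage genes. Without control 1, 4 of the 10 members had every knockout below the remaining control (Gpnmb, Lgals3, Cd68 and Cd63), where 19.6% of genes did. Without control 2, 6 had every knockout above it (Spp1, Lpl, Itgax, Lgals3, Cd68 and Fabp5), where 36.5% of genes did. The 15 pan-macrophage genes, among them the F4/80 gene Adgre1, Csf1r and the C1q genes, were all tested and summed to 230.5 and 375 FPKM in the 2 controls against 304, 406 and 338 in the 3 knockouts. Control 1 was the lowest liver by this measure and control 2 lay among the knockouts. Their median log2 difference was 0.20, and it turned to -0.10 without control 1 and was 0.59 without control 2. Of the 15, 13 were higher in knockouts, where 64.2% of all genes tested were, and 0 passed the adjusted test. Groups that did not overlap were found for 0 of the 15, where 18.9% of all genes tested lay above and 6.38% below. C1qa had 42.6 and 65.3 FPKM in the 2 controls against 66.6, 75.5 and 65.3 in the 3 knockouts, and Adgre1 4.48 and 8.90 against 6.51, 9.40 and 9.57 FPKM.

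Kupffer cell markers followed the same order of controls. Their 11 genes summed to 266 and 388 FPKM in the 2 controls against 334, 385 and 381 in the 3 knockouts. The median log2 difference was 0.23, with 9 of 11 higher and 0 passing, and it turned to -0.12 without control 1 and was 0.50 without control 2. Clec4f had 59.1 and 90.6 FPKM in the 2 controls against 87.5, 93.7 and 72.2 in the 3 knockouts, and Timd4 2.23 and 3.71 against 1.61, 3.41 and 4.55 FPKM. Id3, a transcription regulator that Kupffer cells share with other cells, was the only one of the 11 with groups apart, where 18.9% of all genes tested lay above and 6.38% below (10.7 and 14.9 against 22.0, 19.2 and 20.9 FPKM, limma adjusted p = 0.675).

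Genes of monocytes and recruited macrophages were scarce. Of 12 genes, 5 reached a mean of 1 FPKM, with 4 higher, 1 lower and 0 passing (median log2 difference 0.068, and -0.019 with quantile normalization). The median was -0.075 without control 1, 0.28 without knockout 1, 0.13 without knockout 3 and 0.53 without control 2. Lyz2, lysozyme of myeloid cells, had 34.7 and 49.8 FPKM in the 2 controls against 42.9, 62.1 and 72.9 in the 3 knockouts. Ccr2, the chemokine receptor that brings monocytes into tissue, had 0.28 and 0.47 against 0.50, 0.57 and 0.41 FPKM. Among 7 dendritic cell markers, which bear on Itgax, 2 were tested, 1 being higher and 1 lower in knockouts with 0 passing. Zbtb46 had 1.17 and 1.12 FPKM in the 2 controls against 1.46, 1.51 and 1.92 in the 3 knockouts. All 3 lay above both controls, as they did for 18.9% of all genes tested. Clec9a had 1.13 and 1.29 against 0.87, 1.51 and 0.61 FPKM, and its groups overlapped.

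**Figure D3:**
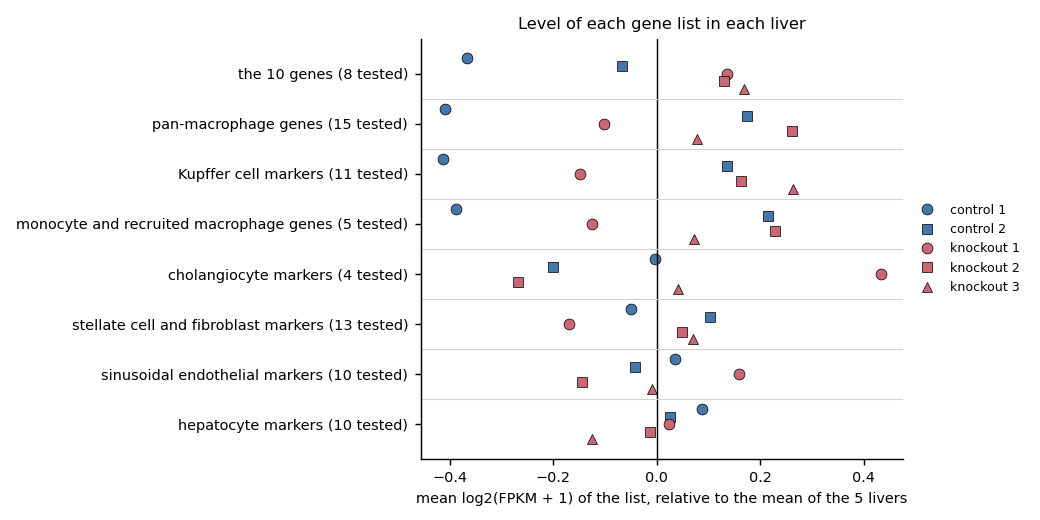
Mean log2(FPKM + 1) of each gene list in each liver, relative to the mean over the 5 livers (horizontal axis, log2 units), over the genes with a mean of at least 1 FPKM. Control 1 is the lowest liver for the 10 genes (-0.37), pan-macrophage genes (-0.41), Kupffer cell markers (-0.41) and monocyte genes (-0.39), and knockout 1 is the highest for cholangiocyte markers (0.43).

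Set against the summed FPKM of the 15 pan-macrophage genes in the same liver, Spp1 alone of the 10 kept its groups apart. It had 11.3 and 10.2 FPKM per 100 pan-macrophage FPKM in controls and 21.9, 11.8 and 14.9 in knockouts. On this scale every knockout lay above every control for 2.82% of the 14401 genes and below for 6.86%. Fabp5 had 4.69 and 1.85 in controls and 15.03, 3.40 and 10.3 in knockouts, so that knockout 2 fell below control 1. Lpl had 0.950 and 0.839 against 1.17, 0.921 and 1.76, and Cd63 2.58 and 1.37 against 1.42, 1.06 and 1.05.

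Cd68 came to 3.72 and 4.65 per 100 pan-macrophage FPKM in controls and to 3.80, 3.48 and 3.66 in knockouts, a far narrower spread than its FPKM had. Lgals3 came to 1.68 and 1.86 against 1.55, 1.5 and 1.87, and Trem2 to 0.469 and 0.432 against 0.385, 0.502 and 0.136. In knockout 3, Trem2 was thus the lowest of the 5 livers on either scale, although its pan-macrophage sum was not. In bulk liver, fewer macrophages and less RNA per macrophage cannot be told apart.

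**Figure D4:**
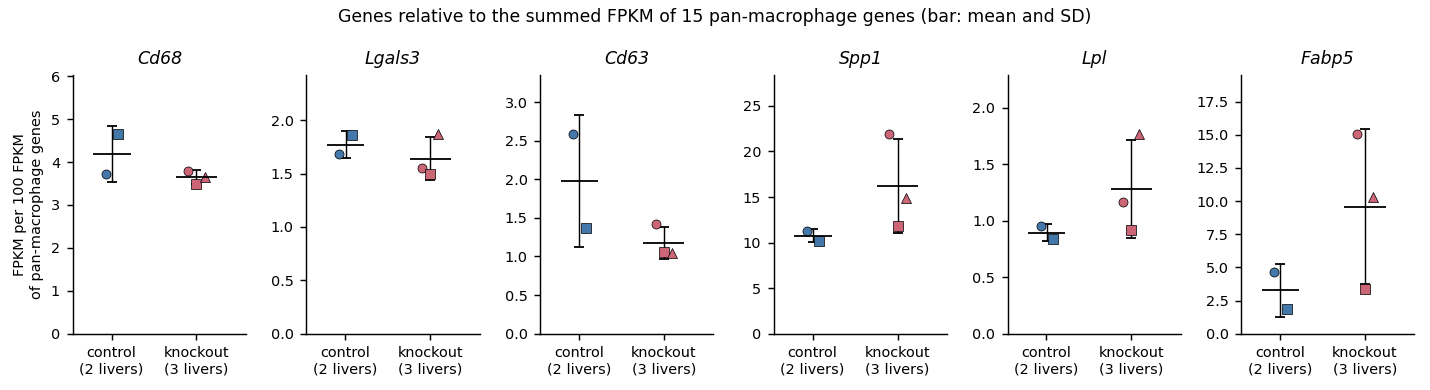
FPKM of 6 genes per 100 FPKM of the summed 15 pan-macrophage genes (vertical axes, each from 0), in 2 control livers (blue) and 3 knockout livers (red), with the mean as a bar and the SD as an error bar. Cd68 lies between 3.48 and 4.65 in all 5 livers, and only Spp1 has all 3 knockouts above both controls.

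Genes that accompany TREM2 were read as a further check on the state. TYROBP carries its signal into the cell, and Tyrobp had 14.7 and 34.7 FPKM in the 2 controls against 27.7, 32.1 and 28.1 in the 3 knockouts (log2 difference 0.35, SE 0.32, limma adjusted p = 0.814). Control 1 lay below all others and control 2 above all, as for Cd68. Of 11 genes of TREM2 signalling and shedding, 8 were tested, 7 being higher and 1 lower with 0 passing. Their median log2 difference was 0.17, and it was 0.068 without control 1 and 0.29 without control 2. Syk, the kinase downstream of TYROBP, had 0.82 and 1.34 against 1.54, 1.73 and 1.47 FPKM, and Adam10, which sheds TREM2 from the surface, 4.82 and 5.19 against 5.75, 6.16 and 6.15 FPKM. These 2 had groups that did not overlap, as had 18.9% of all genes tested in that direction. In the fit of 14401 genes, where 17.8% did, so had Plcg2 (0.42 and 0.70 against 0.75, 0.72 and 0.73 FPKM).

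Further genes reported for lipid-associated macrophages split evenly. Of 20 listed, 14 were tested, 7 higher and 7 lower with 0 passing, and their median log2 difference was 0.016 (-0.050 with median-of-ratios scaling, -0.021 with quantile normalization). That median was -0.15 without control 1, -0.011 without knockout 2, 0.0023 without knockout 3, 0.054 without knockout 1 and 0.13 without control 2. Plin2, the lipid droplet coat protein that hepatocytes also make, had 120 and 167 FPKM in the 2 controls against 167, 193 and 156 in the 3 knockouts. Apoe, made mainly by hepatocytes in liver, had 35576 and 38227 against 30665, 33024 and 33179 FPKM, and Ctsz 174 and 171 against 163, 163 and 153 FPKM. Lilrb4a, an inhibitory myeloid receptor, had 1.67 and 1.80 against 2.05, 2.51 and 2.32 FPKM. Apoe and Ctsz were below both controls in every knockout, where 6.38% of all genes tested were, and Lilrb4a was above, where 18.9% were.

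Lysosome genes, which Cd63, Cd68 and Gpnmb belong beside, had a median log2 difference of 0.015 (-0.052 with median-of-ratios scaling, -0.029 without control 1, -0.0044 without knockout 2 and 0.092 without control 2), with 14 of 20 tested members higher, 6 lower and 0 passing. Npc1, which exports cholesterol from lysosomes, had 33.1 and 28.3 FPKM in the 2 controls against 41.3, 42.4 and 43.9 in the 3 knockouts (log2 difference 0.46, SE 0.11, unadjusted p = 0.0042, limma adjusted p = 0.675). The lysosomal channel gene Mcoln1 had 34.4 and 32.4 against 37.6, 45.9 and 43.4 FPKM. Mitf, which drives Gpnmb in several cell types, had 0.65 and 0.60 against 0.75, 1.16 and 1.25 FPKM, and Tfeb 4.79 and 4.59 against 5.46, 6.07 and 4.30 FPKM. Of the 20 tested, Npc1 and Mcoln1 had every knockout above both controls, as had 18.9% of all genes tested, and so had Mitf in the fit of 14401 genes, where 17.8% did.

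Of 5 other galectins, all tested, 3 were higher and 2 lower in knockouts with 0 passing. Lgals8 had 52.9 and 57.7 FPKM in the 2 controls against 69.7, 66.9 and 69.3 in the 3 knockouts (log2 difference 0.31, SE 0.093, limma adjusted p = 0.700). Lgals1 had 6.26 and 20.15 against 8.16, 8.95 and 5.97 FPKM, control 2 being the highest liver as for Lgals3. Of 11 cytokine and chemokine genes only 3 reached a mean of 1 FPKM, and Il1b had 0.76 and 1.31 against 0.76, 0.67 and 2.12 FPKM.

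Patterns over the 5 livers were also matched gene by gene, as a description without a test. The measure was the root mean square difference of centred log2(FPKM + 1) between a member and each of the genes tested. Nearest to Spp1 were Zrsr2 (0.059 log2 units), Mup2 (0.11) and Mup21 (0.12). Nearest to Cd68 were Cyth4 (0.034), Aldh1a7 (0.038) and Ccdc122 (0.045), and to Lgals3 Ugdh (0.028), Septin10 (0.039) and Necab1 (0.045).

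Nearest to Lpl were Pvt1 (0.047), Acss2 (0.069) and Wdr62 (0.070), and to Cd63 Clcc1 (0.026), Khdrbs3 (0.049) and Acot8 (0.058). For Trem2 they were Gstm2 (0.090), Cstpp1 (0.095) and Iqsec2 (0.11), and for Cd9 Parp2 (0.077) with Gm3414 and Lcorl, whose rows hold the same values (0.082). Closest to Fabp5 were Idi1, an enzyme of sterol synthesis (0.38), Ugt2b37 (0.43) and Impa2 (0.44). Idi1 had 14.8 and 15.2 FPKM in the 2 controls against 51.9, 31.9 and 69.9 in the 3 knockouts. The measure is not scaled to a gene's own range. That range was 2.55 log2 units for Fabp5 against 1.32 for Spp1, the next widest, so the larger distances for Fabp5 are not comparable with the others.

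Some facts of the libraries bear on these values. Knockout 1 stood apart in erythroid genes, whose 7 rows summed to 1329 FPKM there and to between 136 and 244 FPKM in the other livers. It was the highest liver for Spp1, Fabp5 and Itgax, and the part of blood content in these was not tested. Without knockout 1 the log2 differences were 0.62 for Spp1, 1.25 for Fabp5 and 0.098 for Itgax. Heg1, the targeted gene, had 0.48 and 0.35 FPKM in the 2 controls against 0.45, 0.43 and 0.50 in the 3 knockouts. The groups overlapped, and Heg1 was not lower in knockouts. Its log2 difference was 0.046 (SE 0.11, limma adjusted p = 0.934 in the fit with a minimum of 0.1 FPKM). These values thus do not bear out the knockout label, and in whole liver they are only a weak check of it. All 10 sinusoidal endothelial markers were tested with 0 passing. Of all genes tested 64.2% were higher in knockouts, and at an unadjusted limma p below 0.05 there were 572 higher (5.29%) and 185 lower (1.71%), a split that became 310 and 362 with median-of-ratios scaling and 279 and 321 with quantile normalization. The sets of members above and below both controls were the same under those scalings, but the shares over all genes tested were not. In the main fit 18.9% lay above and 6.38% below. With median-of-ratios scaling these were 11.9% and 12.1%, and with quantile normalization 10.9% and 11.5%.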

How the data were processed

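RNA-seq of 5 mouse livers was used. The authors deposited FPKM per gene symbol, rounded to 2 decimals, in 2 tables whose 33589 rows hold identical values. The submitters' processing notes name HISAT2, StringTie and DESeq2 and the mm10 build, and their versions, roles and strand setting are not given in the sources used here. Columns were assigned by the sample descriptions. FPKM are not counts. In short genes with 1 exon only 25.1% to 29.6% of values came within 0.1 of whole multiples of the commonest step, so reads were not recovered and depth is unknown. FPKM summed to 797692 to 820498 per library.

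limma 3.58.1 (R 4.3.3, trended prior variance, two-sided, Benjamini-Hochberg over all genes) was run on log2(FPKM + 1) of genes averaging at least 1 FPKM, with genotype as the only term. Gpnmb, Itgax and other genes under 1 FPKM were read from the same fit with a minimum of 0.1. On simulated data for this comparison (10820 genes, 200 of them changed) the share found was 88.0% at 2-fold, 99.0% at 4-fold and 100% at 8-fold. Of the genes called there, 6.88%, 4.81% and 7.41% were false. The simulation drew independent noise for each gene from limma's own variance estimates. It held no shifts shared by many genes of a liver, so these shares need not hold for the real data. The labels state neither litter nor batch nor separate animals, so p-values reflect only the variation among these libraries, which may be technical.

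The members and the 21 gene lists used (223 entries, 1 of them, Trac, without a row, and 2 matched under another symbol) were chosen with earlier results of these data known, and lists are described by counts and medians only. Genes named from a list are preset ones or up to 4 with the smallest unadjusted p. Spint2, Tspan8, Sox9 and Plcg2, and list sums without the most abundant gene, were chosen after seeing the data. Gene positions are from GENCODE M21 (GRCm38). Upstream sequences are from RefSeq (GRCm38.p6). Alternatives were other filters, pseudocounts, scalings, prior and library weights, a replicate block and leaving out each library. The values of 1 gene in the lists are not reported here.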

Additional observations from a re-analysis of the deposited data

How the results depend on the processing

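No member passed limma's adjusted test under any of the 16 alternatives, with adjusted p of at least 0.281 over members and settings. Over all genes 0 passed, except 5 with the replicate block (Moxd1, Mup9, Mup11, Mup16 and LOC108167922) and 1, Hamp, without control 1 (leaving out single libraries gave 0 to 1). The labels number livers within each genotype and no label pairs them. Same-numbered livers deviated together only weakly (r = 0.23 and 0.20 across genes), which 2 pairs cannot settle. With 2 controls, the deviation of 1 is that of the other with its sign changed. Both r values thus rest on the same control contrast, and control 2 with knockout 1 gave -0.23. The block fit rests on those 2 pairs. The block turned Trem2 to 0.14 and reversed no other member. Median-of-ratios scaling turned Cd68 to -0.023, and quantile normalization turned Cd68 to -0.034 and Lgals3 to -0.00019.

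The median log2 difference of the 10 members, 0.11, was 0.077 with median-of-ratios scaling, 0.044 with quantile normalization, 0.26 with a pseudocount of 0.1 and 0.37 at a minimum of 5 FPKM, which leaves 5 of the members and none below both controls. Leaving out single libraries moved it between -0.11 (without control 1) and 0.47 (without control 2). Members above both controls then numbered 3 to 6, the 6 without control 2, where 36.5% of genes lay above. Members below numbered 1 to 4, the 4 without control 1, where 19.6% of genes lay below. Leaving out single libraries put Trem2 between -0.39 and 0.14, Gpnmb between -0.32 and 0.069, Lgals3 between -0.26 and 0.45 and Cd68 between -0.43 and 0.51. Cd9, Spp1, Lpl, Itgax, Cd63 and Fabp5 kept their sign in each alternative that gave a value. With 1 control left, that liver is assumed to vary like the knockouts.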
